A study of Mus musculus with 6 samples.

Results

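Nxf3, the mouse gene of the bait protein, was counted in small RNA libraries of mouse fibroblasts. It was set beside 9 genes of the nuclear export machinery, Nxf1, Nxt1, Xpo1, Xpo5, Xpot, Phax, Ran, Nup98 and Thoc2. These 10 genes were taken by symbol from the 23420 genes of each count table, and all 10 were present and had reads. The cells were NIH 3T3, an immortalised mouse fibroblast line, and all had been transfected with the pEGFP-NXF3 plasmid, which encodes NXF3 fused to green fluorescent protein (GFP). The 3 input libraries were made from RNA to which no antibody had been applied. The 3 NXF3 pulldown libraries were made from RNA recovered with an anti-GFP antibody on beads. The RNA came from 3 experiments, the libraries were amplified with 14 PCR cycles, and gel products of 30 to 375 nucleotides were sequenced, so reads of these mRNAs come from fragments. The promoter of the plasmid, the species of its insert and the share of transfected cells are not stated in the labels, and neither untransfected cells nor a pulldown without the bait were analysed here.

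NXF proteins carry messenger RNA through the nuclear pore. NXF1 does so for most mRNAs as a dimer with NXT1, without using the GTPase Ran, while exportins such as exportin 1 (Xpo1, also called CRM1) bind cargo together with Ran loaded with GTP and release it in the cytoplasm. NXF3 is a relative of NXF1 that lacks the part with which NXF1 contacts the pore, and the human protein was found to leave the nucleus through exportin 1. PHAX bridges capped small RNAs to exportin 1 and also takes part in the path of small nucleolar RNAs (snoRNAs), the RNA class that the title of the series concerns.

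Gene counts per library ran from 769570 in pulldown 1 to 6946284 in pulldown 2. Markers matched the labelled cell type: 12 of 12 fibroblast markers had reads and 10 passed the count filter, at 0.0274% to 0.0378% of gene counts in input and 0.0167% to 0.0706% in the pulldown. Of the epithelial markers (Epcam, Cdh1, Krt8, Krt18, Krt19) 0 of 5 had a read, and the 5 adipocyte, 5 leukocyte and 5 male germ cell markers had 2 reads per list in all 6 libraries together, with Adipoq, Ptprc and Ddx4 at 0. Pulldown 1, the shallowest, stood somewhat apart, with correlations of 0.883 to 0.905 with the other libraries on log2 CPM. CPM are counts scaled to a common library size after TMM, which corrects for differences in RNA composition, and the TMM factor was 1.94 in pulldown 1 against 0.607 in pulldown 2.

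How far reads can be told apart between Nxf3 and its relatives was read from the GENCODE M21 transcripts (GRCm38, a later build than the mm9 that the submitters' processing notes name). None of the 2949 words of 30 bases in the Nxf3 transcript occurred in a transcript of another gene, on either strand. The longest identical stretches between the coding sequences of Nxf3 and of Nxf1, Nxf2 and Nxf7 had 18, 17 and 19 bases. They are shown because a fragment confined to such a stretch could be placed on either gene. Each stretch is shorter than the gel products of 30 to 375 nucleotides. The capitals mark the identical bases and the lower case the 15 coding bases on either side.
Nxf3, against Nxf1: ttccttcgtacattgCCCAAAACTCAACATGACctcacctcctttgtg
Nxf1: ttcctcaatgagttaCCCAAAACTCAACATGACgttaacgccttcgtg
Nxf3, against Nxf2: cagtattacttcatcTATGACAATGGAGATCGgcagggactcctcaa
Nxf2: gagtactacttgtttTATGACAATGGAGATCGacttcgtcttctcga
Nxf3, against Nxf7: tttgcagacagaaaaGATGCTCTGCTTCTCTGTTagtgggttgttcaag
Nxf7: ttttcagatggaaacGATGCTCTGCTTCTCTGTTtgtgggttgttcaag
In the windows shown, 12 of 48, 12 of 47 and 5 of 49 bases differed from Nxf3. Nxf2 and Nxf7, relatives of NXF1 that were not among the 10 genes, had 0 reads in every library, so no reads had been assigned to them beside those on Nxf3.

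Nxf3 was one of the most counted mRNAs in every library, input and pulldown alike. Nxf3 had 2343, 2217 and 2028 reads across inputs 1 to 3, against 1601, 6559 and 2426 reads across pulldowns 1 to 3. That placed it between ranks 28 and 49 among all genes. Among the 19330 symbols that GENCODE lists as protein-coding it had the highest count in 5 libraries and the second highest in input 3, behind the histone gene Hist1h4d. Per kilobase of exon, among protein-coding genes with at least 10 reads in the library, it was again first in 5 libraries and the third in input 3. It took 4.07%, 5.60% and 2.27% of all protein-coding counts across inputs 1 to 3, against 5.15%, 7.82% and 4.10% across pulldowns 1 to 3. Plasmid-derived and chromosomal Nxf3 RNA cannot be told apart in these counts, nor can more transfected cells and more transcript per cell. Since the species of the insert is not stated, how much of the plasmid RNA was counted on mouse Nxf3 is not known.

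As a share of all gene counts, Nxf3 overlapped between the groups. The share was 0.0612%, 0.118% and 0.0515% across inputs 1 to 3, against 0.208%, 0.0944% and 0.0740% across pulldowns 1 to 3, where the exact Clopper-Pearson 95% interval was widest in pulldown 1, at 0.198% to 0.218%. Such intervals cover counting error only. Pulldown 1 was the highest of all libraries, and input 2 lay above the other 2 pulldown libraries. The means were 0.0768% ± 0.0357 and 0.125% ± 0.0722 (SD, n = 3 each), a difference of 0.0487 percentage points within the spread of single libraries (p = 0.5 by a two-sided exact permutation test with 3 libraries per group, where the smallest possible p is 0.1). Without pulldown 1 that difference was 0.00742 points.

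After TMM scaling, Nxf3 stood at 817, 1115 and 455 CPM across inputs 1 to 3, against at 1085, 1562 and 806 CPM across pulldowns 1 to 3. Each pulldown lay above the input of the same number, yet the groups overlapped, since input 2 was higher than pulldowns 1 and 3. The log2 fold of pulldown against input was 0.53 with an SE of 0.55 and a 95% interval of -0.64 to 1.71 (adjusted p = 0.97 by the edgeR quasi-likelihood test over 1852 genes). An increase or a fall of moderate size therefore could not be told from the spread between libraries. Scaled to total gene counts, 2 of 3 pairs were higher in the pulldown in place of 3, and the log2 fold was 0.71. With TMM, it was 0.22 without pulldown 2, 0.25 without input 3 and 0.86 without input 2.

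**Figure D1:**
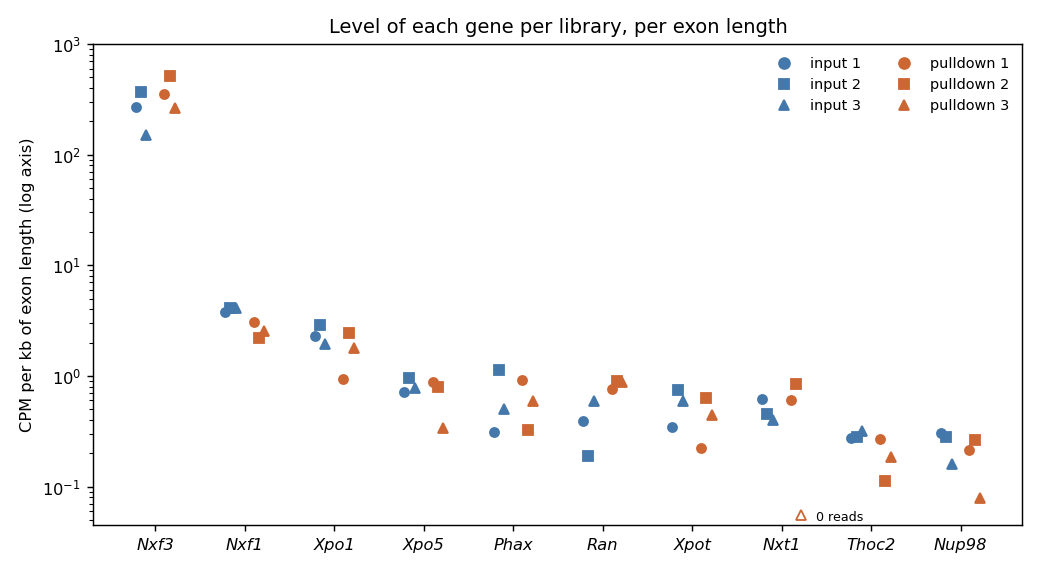
Levels of the 10 genes in each library, as CPM per kilobase of GENCODE M21 exon length on a log axis, with input in blue, pulldown in orange and the replicate number as the symbol. Nxf3 lies between 149 and 512 in every library while the other 9 genes stay at or below 4.10; the open triangle at the lower edge stands for Nxt1 in pulldown 3, which had 0 reads and no place on a log axis.

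Divided by exon length, so that levels of different genes can be set roughly side by side, Nxf3 lay 96.8 times above the next of the 10 genes. Exon length here joins the exons of all transcripts of a gene. For Nxf1 it was 4427 nucleotides, against 2326 in the transcript with the longest coding sequence. For Nxf3 the lengths were 3048 and 2978, so by transcript length the factor would be smaller. The mean level of Nxf3 was 261 ± 108 CPM per kilobase among the inputs and 378 ± 125 among the pulldowns (SD, n = 3 each). Nxf1, the main mRNA export receptor, came second with 3.99 ± 0.182 and 2.61 ± 0.431 CPM per kilobase, and Xpo1 followed with 2.36 ± 0.473 and 1.72 ± 0.742. The lowest level of Nxf3 in any library was 149 CPM per kilobase, against 4.10 for the highest level of any of the other 9 genes. Nxf1 was above Xpo1 in 5 of 6 libraries, and Xpo1 was above Xpo5 in 6 of 6.

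Below these, the order was not resolved. Xpo5, Phax, Ran, Xpot and Nxt1 had means over the 6 libraries of 0.746, 0.631, 0.621, 0.498 and 0.490 CPM per kilobase, and between neighbours in this series the first was above the second in 2 to 4 of 6 libraries. Thoc2 and Nup98, the longest transcripts here by exon length, were lowest, at 0.239 and 0.217 CPM per kilobase, and Thoc2 was above Nup98 in 3 of 6 libraries. Ordered by coding length in place of exon length, Nxf3, Nxf1, Xpo1, Thoc2 and Nup98 kept their places and the middle 5 changed theirs. Exon lengths came from a later annotation than the one behind the counts and join all transcripts of a gene. The reads come from size-selected fragments, so levels per kilobase are approximate.

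Of the mRNA export genes other than the bait, Nxf1 was lower in the pulldown on the TMM scale without passing the test over all genes. It had 48, 36 and 81 reads across inputs 1 to 3, against 20, 41 and 34 across pulldowns 1 to 3. On the TMM scale that was 16.7, 18.1 and 18.2 CPM in input and 13.6, 9.76 and 11.3 CPM in the pulldown, and the groups did not overlap. Such a pattern, all pulldown libraries below all input libraries, was found for 5.89% of the 1852 tested genes. The log2 fold was -0.64 (95% interval -1.21 to -0.08, SE 0.26, unadjusted p = 0.0281, adjusted p = 0.83, edgeR), and Nxf1 was lower in 3 of 3 same-numbered pairs. In a fit without the count filter, the interval of Nxf1 was -1.32 to 0.02 and included 0 (unadjusted p = 0.057, edgeR). Scaled to total gene counts, the groups overlapped (12.6 to 20.8 CPM in input, 5.93 to 26.4 in the pulldown) and the log2 fold was -0.41. With TMM, leaving out any single library gave log2 folds between -0.74 and -0.55.

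Nxt1, the partner of Nxf1, was barely covered. It had 2, 1 and 2 reads across inputs 1 to 3, against 1, 4 and 0 across pulldowns 1 to 3, or 10 reads in all, and 12.3% of its words of 30 bases also occurred in 1 other gene. For the 0 reads of pulldown 3, the exact Poisson 95% interval reached 3.69 reads. The floor of 3 counts stood at 9.15e-05% of that library's gene counts. Nxt1 was below the count filter, and its log2 fold in a fit without the filter was 0.09. The 95% interval was -1.88 to 2.05, so that large changes either way were not detectable at this depth. Without pulldown 2, which held 4 of its reads, the log2 fold was -1.15.

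Thoc2 is the scaffold of the THO complex that couples transcription to export. It was the other gene with all pulldowns below all inputs on the TMM scale, a pattern found for 5.89% of the 1852 tested genes. It had 10, 7 and 18 reads across inputs 1 to 3, against 5, 6 and 7 across pulldowns 1 to 3. On the TMM scale the inputs lay at 3.49, 3.52 and 4.03 CPM and the pulldowns at 3.39, 1.43 and 2.33, so the nearest libraries of the groups were close together. Its log2 fold was -0.81 (95% interval -1.71 to 0.10, SE 0.42, adjusted p = 0.85, edgeR), and -0.47 without pulldown 2. Scaled to total gene counts, its groups overlapped, at 2.63 to 4.61 CPM in input and 0.868 to 6.59 in the pulldown.

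The exportins had negative log2 folds with intervals that included 0. Xpo1, the receptor for proteins with a leucine-rich export signal and for several RNA classes, had 47, 41 and 62 reads across inputs 1 to 3, against 10, 73 and 39 across pulldowns 1 to 3. Its CPM were 16.4, 20.6 and 13.9 in input against 6.78, 17.4 and 12.96 in the pulldown, where pulldown 1 was lowest and pulldown 2 lay within the input range. The log2 fold was -0.36 (95% interval -1.06 to 0.34, SE 0.32, adjusted p = 0.97, edgeR), and it was -0.12 without pulldown 1 and -0.71 without pulldown 2.

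Xpo5, which exports microRNA precursors, had 14, 13 and 24 reads among the inputs and 9, 23 and 7 among the pulldowns, in replicate order. At 4.88, 6.54 and 5.38 CPM in input and 6.10, 5.48 and 2.33 in the pulldown, only pulldown 3 lay below the inputs. The log2 fold was -0.29 (SE 0.36, adjusted p = 0.97, edgeR), and without pulldown 3 it was 0.04. A microRNA gene, Mir693, lies in an intron of Xpo5 and had 0 reads in every library.

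Xpot, the exportin of transfer RNAs, had 6, 9 and 16 reads among the inputs, against 2, 16 and 8 among the pulldowns. It did not reach the count filter. In the fit without a filter its log2 fold was -0.18 with a 95% interval of -1.07 to 0.71, and without pulldown 2 it was -0.66. Of its 30-base words 23.6% also occurred in other genes, most of them in Gm7389, so its count is uncertain.

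The adaptor Phax and the GTPase Ran rested on few reads. Phax had 2, 5 and 5 reads among the inputs and 3, 3 and 4 among the pulldowns, with a log2 fold of -0.14 and a 95% interval of -1.50 to 1.21 in the fit without a filter. Its gene overlaps exons of Aldh7a1 on the opposite strand, which had 7 reads in all, and 4.18% of its words of 30 bases were shared with that gene. The strand setting is not stated, so how reads within this overlap were counted is not known. Ran had 3, 1 and 7 reads among the inputs and 3, 10 and 7 among the pulldowns, which is 1.05, 0.503 and 1.57 CPM against 2.03, 2.38 and 2.33 CPM. It was the one of the 10 genes for which all pulldowns lay above all inputs, a pattern found for 4.48% of the 1852 tested genes. Those genes passed a count filter that Ran did not, so the share does not cover genes with so few reads.

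Ran did not reach the filter, and its log2 fold in the fit without one was 0.96 with a 95% interval of -0.22 to 2.15. On total gene counts its groups overlapped, at 0.535 to 1.79 CPM in input and 1.45 to 3.95 in the pulldown. Words of 30 bases shared with 5 other genes, Gm13461 and Rasl2-9 among them, made up 20.97% of its transcript, so part of its reads may have been placed elsewhere. Rasl2-9 had 0 reads in every library.

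Nup98, a nucleoporin of the pore's central channel that also binds export receptors, had 11, 7 and 9 reads among the inputs and 4, 14 and 3 among the pulldowns. The corresponding CPM were 3.83, 3.52 and 2.02 against 2.71, 3.33 and 0.997, with pulldown 3 the lowest. The log2 fold of -0.30 (SE 0.51) was at adjusted p = 0.98 by edgeR, and without pulldown 3 it was 0.08.

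In all, 6 of the 10 genes passed the filter, and edgeR called 0 of these 6, where it called 0.054% of the 1852 tested genes. DESeq2 and limma-voom also called 0. At an unadjusted p under 0.05 edgeR had 1, Nxf1, where 5.67% of tested genes were under that value in either direction. The 5 tested genes other than Nxf3 all had negative log2 folds, with a median of -0.36, while 50.2% of all tested genes had one and the median over all was -0.0013. Their 4 companions below the filter had log2 folds of both signs.

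**Figure D2:**
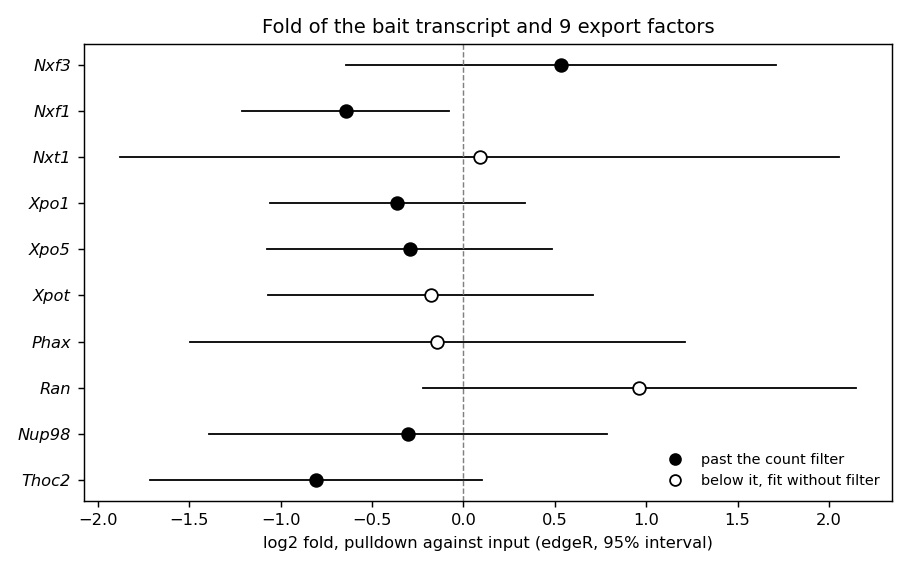
Log2 fold of pulldown against input for the 10 genes with 95% intervals from edgeR, filled for the 6 genes past the count filter and open for the 4 below it, which come from a fit without a filter. Of the intervals shown, that of Nxf1 alone stays below 0 before adjustment (-1.21 to -0.08). In the fit without a filter, not drawn for Nxf1, its interval was -1.32 to 0.02. The interval of Nxt1 is the widest.

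Set against the export factors of the same library, a ratio that does not depend on scaling between libraries, Nxf3 was higher in each of the 3 pulldowns than in any input. The summed reads of the 9 other genes were 143, 120 and 224 across inputs 1 to 3, against 57, 190 and 109 across pulldowns 1 to 3, with an exact Poisson 95% interval of 43.2 to 73.9 for the lowest. Most of these reads belonged to Nxf1 and Xpo1, with 260 and 272 over the 6 libraries, so the ratio rests mainly on these 2 genes. On the TMM scale the 9 genes together averaged 53.5 ± 5.96 CPM among the inputs and 40.0 ± 4.67 among the pulldowns. Nxf3 reads per summed read of the 9 genes were 16.4, 18.5 and 9.05 in input and 28.1, 34.5 and 22.3 in the pulldown. The mean log2 ratio was 3.81 ± 0.551 among the inputs and 4.80 ± 0.317 among the pulldowns (SD, n = 3 each), a difference of 0.99, or 1.99-fold. A two-sided exact permutation test gave p = 0.1, the smallest value possible with 3 libraries per group.

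That separation was not particular to the bait. Among the 1852 tested genes, 19% had a ratio to the same 9 genes that was higher in all pulldown libraries than in all input libraries, and 0.972% had the opposite. The median difference in this log2 ratio over the 1828 tested genes without a 0 count was 0.41, and 8.37% of them had a larger difference than Nxf3. Seen from the other side, Nxf3 over each single other tested gene was higher in all pulldown libraries for 10.9% of genes. Nxf1 was one of them, with Nxf3 at 48.8, 61.6 and 25.04 reads per Nxf1 read across inputs 1 to 3, against 80.0, 160 and 71.4 across pulldowns 1 to 3. For Xpo1 the same ratio was 49.9, 54.1 and 32.7 in input and 160, 89.8 and 62.2 in the pulldown.

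Against a wider set of nuclear transport genes the groups overlapped. The reads of Nxf3 per read of the 30 tested transport genes outside the 10 averaged 3.45 ± 1.39 among the inputs and 4.84 ± 1.42 among the pulldowns (SD, n = 3 each), and input 2 at 4.80 lay above pulldown 3 at 3.40. The log2 difference was then 0.53 in place of 0.99, at p = 0.4 by the same exact permutation test. The 9 export factors themselves, per read of those 30 genes, stood at 0.233 ± 0.0236 among the inputs and 0.169 ± 0.0147 among the pulldowns. These last comparisons were chosen after the values had been seen.

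**Figure D3:**
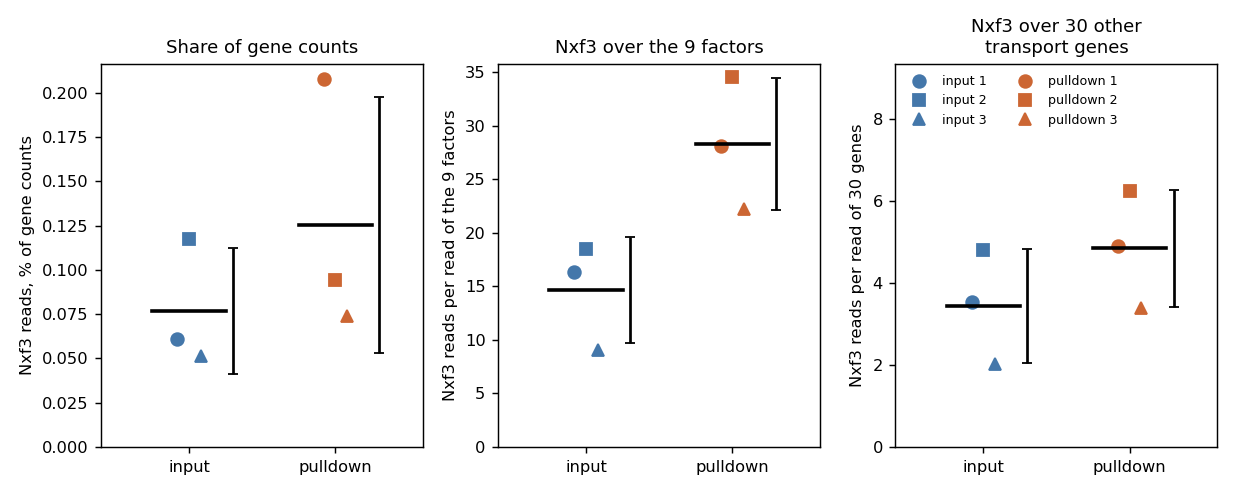
Nxf3 reads in each library as a percentage of gene counts (left), per read of the 9 other export genes (middle) and per read of 30 other tested nuclear transport genes (right), with the group mean as a line and the SD as a bar beside it (n = 3 each). The groups separate in the middle panel (9.05 to 18.5 against 22.3 to 34.5) and overlap in the outer ones.

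The wider machinery was described with lists of 100 nuclear transport symbols, of which 98 were in the tables, 93 had a read and 36 passed the filter, the 6 genes above included. EdgeR called 0 of 36 in either direction, DESeq2 and limma-voom called 0 as well, and 1 had an unadjusted p under 0.05 on the higher side and 3 on the lower, where 2.32% and 3.35% of all tested genes did. The median log2 fold was 0.06 over all 36 and 0.07 over the 30 outside the 10 genes, against -0.0013 over all tested genes, and 20 of these 30 were positive, as were 49.8% of all tested genes. The tested import receptors (10 genes, 7 positive) had log2 folds from -0.33 to 0.59 and the tested nucleoporins (9 genes, 4 positive) from -1.19 to 0.23. Of the 7 tested mRNA export adaptors, 5 were positive and Thoc2 was the lowest, while of the 5 tested genes of the exportin and small RNA export list, 3 were positive and Xpo1 and Xpo5 were the negative ones.

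Among transport genes outside the 10 with at least 10 reads on average, the smallest p-values on the higher side belonged to Nolc1, Ipo9 and Ddx39. Nolc1, the nucleolar chaperone of snoRNA-protein particles also known as Nopp140, had means of 2.42 ± 0.391 CPM among the inputs and 4.30 ± 1.76 among the pulldowns, a log2 fold of 0.92 (SE 0.39) at adjusted p = 0.83 by edgeR. Ipo9, an import receptor, had 3.66 ± 0.462 and 5.43 ± 0.802 CPM. All its pulldowns lay above all inputs, a pattern found for 4.48% of tested genes. Ddx39, an RNA helicase of mRNA export, had 4.48 ± 2.24 and 6.54 ± 1.17 CPM. The log2 folds of Ipo9 and Ddx39 were 0.59 and 0.69, both at adjusted p = 0.85 by edgeR. On the lower side were Ranbp1, a cofactor of Ran hydrolysis, at a log2 fold of -0.89, Shfm1, a small subunit of the TREX-2 complex, at -0.48, and the nucleoporin Nup155 at -0.50, with adjusted p-values of 0.83, 0.92 and 0.97 by edgeR. Tmem48, a pore membrane protein with a mean of 7 reads that was picked after its value was seen, had the lowest log2 fold among the 36 list genes past the filter, -1.19 (adjusted p = 0.83, edgeR).

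**Figure D4:**
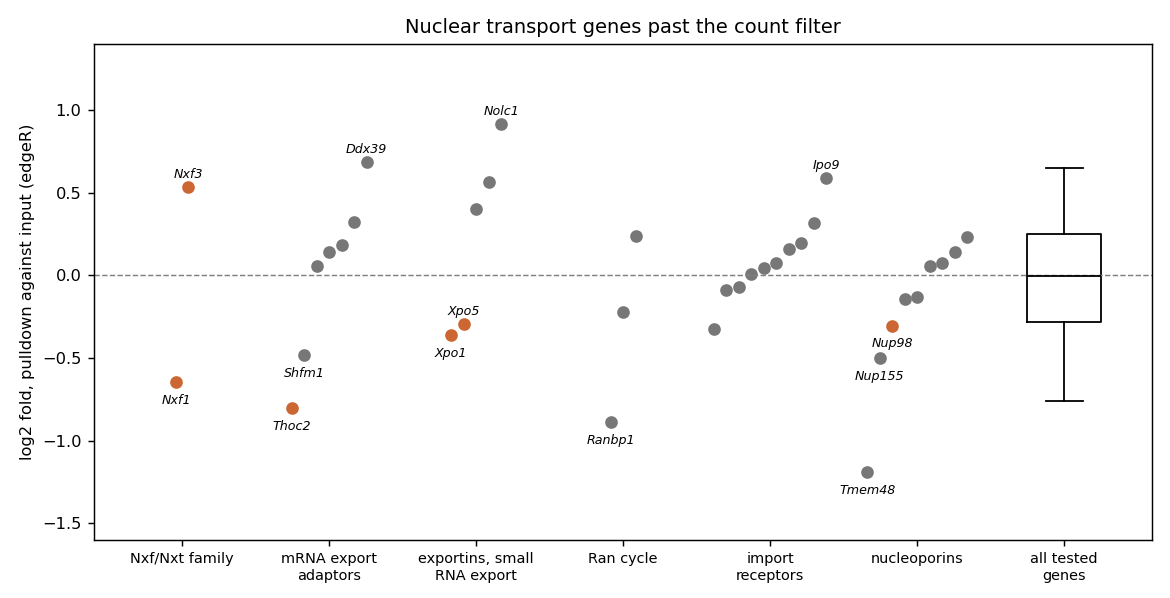
Log2 folds of the 36 tested nuclear transport genes by list, orange for the genes among the 10 described here and grey for the others, beside all 1852 tested genes (box from the first to the third quartile, line at the median, whiskers from percentile 5 to percentile 95, -0.76 to 0.65). Nxf3 and the other 5 tested members lie between -0.81 and 0.53, and no gene of the lists passed the test.

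The genes whose levels over the 6 libraries were most like those of Nxf3, by Pearson's correlation of log2 CPM among 1497 tested genes with a mean of at least 10 reads, were Kpna4 (0.97), Nr1d1 (0.95), Snora44 (0.95), Ppm1g (0.93) and Kpnb1 (0.91). Input 3 was the lowest library for Nxf3 and for each of these genes, and pulldown 2 was the highest for Nxf3, Kpna4, Nr1d1, Snora44 and Ppm1g. For Kpnb1, input 2 was the highest, at 51.3 CPM against 50.7 in pulldown 2. The 3 export factors with enough reads to enter this comparison were less alike, at 0.24 for Xpo5, 0.09 for Xpo1 and -0.59 for Nxf1. All points share their libraries and scaling factors, and these values describe 6 libraries only.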

How the data were processed

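The authors deposited 1 table of raw read counts per gene symbol for each library. Per the submitters' processing notes, Bowtie, Partek and build mm9 were used, and the file names state that rRNA reads were removed and reads counted with HTSeq-count; versions, annotation and strand setting are not stated there. The 5 summary lines were left out; 22.2% to 35.6% of reads were assigned to a gene.

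Pulldown was compared with input in edgeR 4.0.16 (R 4.3.3): TMM, filterByExpr (minimum count 10), quasi-likelihood F test over 6 libraries, Benjamini-Hochberg adjustment over 1852 genes, threshold 0.05. SEs and intervals follow from the F statistic. The script was tested on simulated data. Exact permutation tests used SciPy 1.17.1. Alternatives were DESeq2 1.42.0, limma 3.58.1 (voom), other scalings and filters, a replicate block and leaving out libraries. Exon lengths, biotypes and shared words came from GENCODE M21, which matched 93.0% of symbols.

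The Clopper-Pearson and Poisson intervals and the floors (3 counts) cover counting error of reads only, while the edgeR intervals include the spread between libraries. PCR reads carry no molecular identifiers, so copies of the same molecule cannot be told apart. P-values set the difference between the groups against the spread between these libraries. Members, lists and tests were chosen with earlier results of these data known. All 10 genes are named; from the transport lists, the 3 smallest p per direction outside the 10 (mean of at least 10 counts); and the 5 genes most like Nxf3.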

Additional observations from a re-analysis of the deposited data

How the results depend on the processing

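The calls described here did not depend on the settings run: 0 of the 10 genes and 0 of the nuclear transport genes were called under each of 14 alternatives, and the log2 fold of Nxf3 stayed positive under all 14, from 0.22 to 0.86, with adjusted p-values of 0.87 or above. Of the 6 tested genes, Xpo5 and Nup98 changed sign, both without pulldown 3 (0.038 and 0.078), and leaving out single libraries gave -0.58 to 0.038 and -0.90 to 0.078; of the 4 below the filter, Nxt1, Xpot and Phax also took both signs. The number of the 10 genes below the filter (4) was 0 without a filter, 6 when genes averaging under 10 counts were dropped (Nup98 and Thoc2 then went untested too), and ran from 2 to 4 when single libraries were left out. Over all genes, 1 was called with TMM, 0 with total counts, 16 without a filter, 2 with DESeq2 and 4 with the replicate block, and 0 to 11 when a library was left out. Same-numbered libraries deviated together with correlations of 0.03, 0.07 and 0.14, each the highest of its row and column, a hint from the data and not the design; with the replicate block the log2 fold of Nxf3 was 0.57 (adjusted p = 0.93, edgeR), and sign flips within pairs gave p = 0.75 for its share (exact permutation test, n = 3 pairs). The difference in the log2 ratio of Nxf3 to the 9 export genes ran from 0.53 to 1.201 over the 14 alternatives. The lowest value was against the 30 other transport genes, a set added after seeing the data. Reads per kilobase, Nxf1 alone, Xpo1 alone and the sum without Xpot, Ran, Nxt1 and Phax were also added then. Leaving out a library could not change the sign, since every pulldown ratio lay above every input ratio. Sign flips within pairs left the value as it was and gave p = 0.25, the smallest value possible with 3 pairs (exact permutation test). Depth limits Nxt1, Phax, Ran, Nup98, Thoc2 and Xpot, with 10 to 57 reads each in all libraries.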
